A study of Homo sapiens with 8 samples.

Results

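Metallothioneins, the metal-sensing transcription factor MTF1 and 3 zinc transporters were followed in A375 human melanoma cells after serum was removed. The 10 genes were taken by name from the 58051 genes counted in every library: the metallothioneins *MT1E*, *MT1F*, *MT1G*, *MT1M*, *MT1X* and *MT2A*, the regulator *MTF1*, the zinc exporter *SLC30A1* and the zinc importers *SLC39A6* and *SLC39A10*. The 8 RNA libraries came from 4 lines labelled wild type, WT1 to WT4, each grown from a single A375 cell and therefore representing 1 clone. Every line was kept for 12 h in DMEM with 10% fetal bovine serum or in DMEM with 0% serum, giving 4 libraries per condition and 2 per line. The study used this comparison to look for secreted factors that prevent adherens junctions, which form when serum is withdrawn. The count files of the line labelled WT4 carry another name, so that its identity rests on the labels, and 1 culture per line and condition was sequenced.

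Metallothioneins are small cysteine-rich proteins that bind zinc, copper and cadmium and buffer the free metal in the cytosol. When free zinc rises, MTF1 binds it through its zinc fingers, enters the nucleus and switches on metallothionein genes and *SLC30A1* through short DNA sequences called metal response elements. SLC30A1 (ZnT1) carries zinc out across the plasma membrane, as the other ZnT carriers of the SLC30 family move zinc out of the cytosol or into vesicles. The ZIP carriers of the SLC39 family do the reverse, and SLC39A6 (ZIP6) and SLC39A10 (ZIP10) are related importers that can pair with each other at the cell surface. Glucocorticoids also induce *MT2A*, and serum brings cells both metals and hormones. Neither zinc nor protein was measured in these samples.

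The 6 metallothionein members lie together on chromosome 16 of GRCh38, from *MT2A* at 56608584 to 56609497 to *MT1X* at 56682470 to 56684196. Their coding sequences are so alike that the assignment of reads had to be examined first. The last 90 coding bases before the stop codon, from the GENCODE transcripts, are shown to let the members be compared base by base, with capitals at every base that differs from *MT2A*:
MT2A: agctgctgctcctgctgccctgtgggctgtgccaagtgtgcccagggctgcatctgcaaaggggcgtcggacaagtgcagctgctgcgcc
MT1X: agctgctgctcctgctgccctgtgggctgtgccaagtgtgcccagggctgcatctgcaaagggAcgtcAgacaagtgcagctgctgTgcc
MT1G: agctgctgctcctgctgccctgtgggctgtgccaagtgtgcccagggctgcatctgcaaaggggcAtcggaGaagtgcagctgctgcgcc
MT1E: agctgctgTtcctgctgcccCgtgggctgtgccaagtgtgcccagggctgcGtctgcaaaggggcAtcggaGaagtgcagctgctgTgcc
MT1F: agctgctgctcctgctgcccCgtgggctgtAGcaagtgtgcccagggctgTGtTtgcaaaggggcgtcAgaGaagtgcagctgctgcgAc
MT1M: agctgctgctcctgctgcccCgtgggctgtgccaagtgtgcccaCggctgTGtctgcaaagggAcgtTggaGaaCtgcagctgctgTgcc

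*MT1G* differed from *MT2A* at 2 of the 90 positions, *MT1X* at 3, *MT1E* at 6, and *MT1F* and *MT1M* at 9 each. Over whole transcripts, however, 0% of the windows of 100 bases in *MT2A*, *MT1E*, *MT1F*, *MT1G* and *MT1M* were found in the exons of another gene. For *MT1X* 11.6% of windows were shared, with an overlapping gene that had 0 reads in every library. Of its exon bases 18.6% lie in exons of that gene on the same strand. Reads there may have been set aside as ambiguous, so *MT1X* may be undercounted. *MTF1*, *SLC30A1* and *SLC39A10* shared 0% of such windows and *SLC39A6* 3.39%.

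The start sites of *MT2A* and *MT1X*, the metallothionein members with an entry in the promoter table used, were searched for the core of the metal response element, as were those of the other members in it. The 250 bases before the RefSeq start are shown for *MT2A* (GRCh38.p14, chr16:56608334-56608583, plus strand), *MT1X* (chr16:56682220-56682469, plus strand) and *SLC30A1* (chr1:211579162-211579411, minus strand), 3 members known to be induced by MTF1. Capitals mark matches to TGCACNC or TGCGCNC, searched on both strands:
MT2A: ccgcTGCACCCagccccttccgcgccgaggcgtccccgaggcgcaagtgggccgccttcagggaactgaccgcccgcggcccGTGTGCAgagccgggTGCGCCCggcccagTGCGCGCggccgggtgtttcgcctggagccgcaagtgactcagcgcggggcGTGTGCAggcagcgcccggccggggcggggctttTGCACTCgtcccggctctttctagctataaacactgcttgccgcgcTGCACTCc
MT1X: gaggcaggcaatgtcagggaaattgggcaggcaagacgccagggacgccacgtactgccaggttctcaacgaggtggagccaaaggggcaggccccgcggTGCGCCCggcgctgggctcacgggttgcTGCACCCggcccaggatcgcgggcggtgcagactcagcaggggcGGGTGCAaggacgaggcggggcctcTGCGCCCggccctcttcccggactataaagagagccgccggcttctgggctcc
SLC30A1: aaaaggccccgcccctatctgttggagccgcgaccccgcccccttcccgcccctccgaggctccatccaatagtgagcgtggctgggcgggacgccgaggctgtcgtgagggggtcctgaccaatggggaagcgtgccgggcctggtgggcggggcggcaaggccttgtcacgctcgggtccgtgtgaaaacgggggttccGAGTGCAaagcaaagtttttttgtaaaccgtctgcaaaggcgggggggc

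In windows of 300 bases, from 250 before the start to 50 after it, *MT2A* held 8 matches, of which 7 lie in the stretch shown. *MT1X* held 4 and *SLC30A1* 2, of which 1 lies in the stretch shown. *SLC39A6* held 1, *MTF1* held 0, and the 2 windows of *SLC39A10* in the table, which lie downstream of the gene start given with its values, held 0 and 1. Among 35116 windows of this length, 29.6% held at least 1 match, 8.60% at least 2, 0.601% at least 4 and 0.0199% at least 8. A match is a string of letters and was not shown to be a bound site.

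Nearly all reads assigned to metallothionein genes were on *MT2A*. Of the 18 metallothionein genes and pseudogenes listed, 12 had no read in any of the 8 libraries. Of these 12, *MT1DP*, *MT1JP* and *MT1L* share 100% of their windows of 100 bases with transcripts of other annotated genes. Whether reads on them could be assigned is not known, so their 0 was not read as a measure of level. *MT2A* took from 98.9% to 99.6% of the reads on the family in each library. *MT2A* was counted at 8694, 13561, 7676 and 8403 reads with serum and at 14318, 21922, 14943 and 18902 reads without it (WT1 to WT4). The gene was therefore deeply covered in every library, with totals on all genes running from 29759279 to 73341551 reads.

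The other metallothionein members were scarce or undetected. *MT1X* had 65, 91, 77 and 42 reads with serum and 84, 94, 56 and 78 without. *MT1F* had 0, 0, 3 and 6 reads with serum and 4, 14, 0 and 2 without, and *MT1G* had 1 read, in WT2 with serum. *MT1E* and *MT1M* had 0 reads in all 8 libraries. Taking 3 reads as the limit that a count of 0 allows, each of these was below 0.0393 to 0.106 CPM (the read count scaled to a common library size), depending on the library, a limit that covers counting error only. *MT1E*, *MT1F*, *MT1G* and *MT1M* had too few reads for the test, which leaves 6 of the 10 genes tested, and their changes were not detectable at this depth.

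**Figure D1:**
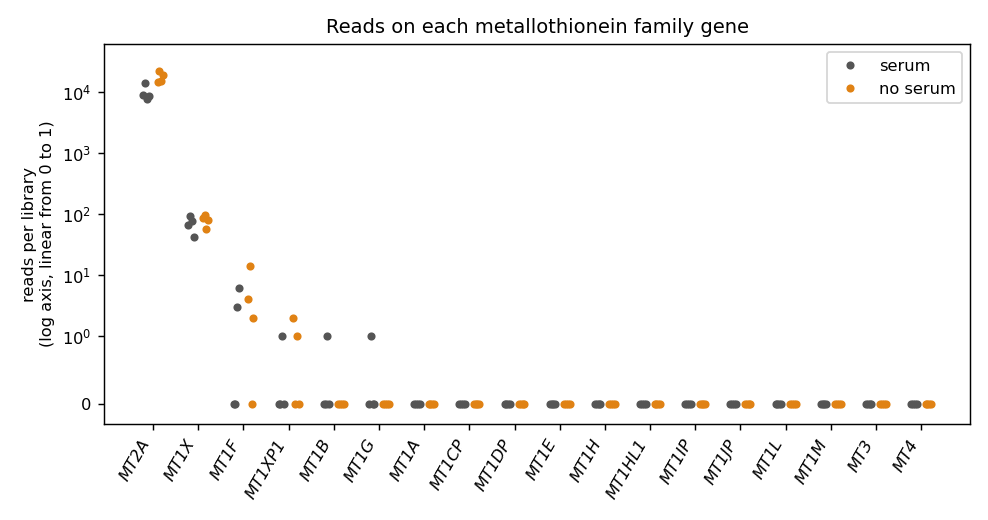
Reads per library on each of the 18 metallothionein family genes, on a log axis that is linear from 0 to 1, with grey points for the 4 libraries with serum and orange points for the 4 without. *MT2A* lies between 7676 and 21922 reads, *MT1X* between 42 and 94, and 12 genes sit at 0 throughout.

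Per gene length (RPKM, which is CPM divided by the length of the merged exons in kilobases), the members spanned a wide range of levels. *MT2A* stood highest at 249 ± 54.6 RPKM with serum (mean ± SD, n = 4) and ranked at 128 among 17425 genes. *SLC39A6* followed at 38.0 ± 3.13 RPKM and *SLC30A1* at 17.4 ± 1.81. *SLC39A10* at 9.02 ± 1.26 RPKM and *MTF1* at 8.70 ± 0.350 did not differ beyond their spread by merged exon length. By the length of the longest transcript they stood further apart, at 11.5 and 8.76 RPKM with serum. *MT1X*, at 0.924 ± 0.114 RPKM, was below the median of these genes, 2.75, a comparison that uses merged exon lengths throughout. With the length of its spliced mRNA, 404 bases, *MT1X* was at 3.95 RPKM. Without serum the order was the same, with *MT2A* at 368 ± 43.3 RPKM and rank 62, *SLC39A6* at 23.5 ± 1.86, *SLC30A1* at 9.83 ± 1.06, *SLC39A10* at 7.18 ± 0.428, *MTF1* at 6.64 ± 0.266 and *MT1X* at 0.875 ± 0.192. The merged exons of *MT2A* are longer than its spliced mRNA of 401 bases, and with the mRNA length its levels were 569 RPKM with serum and 839 without.

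After 12 h without serum, *MT2A* RNA was higher while *SLC30A1*, *SLC39A6*, *MTF1* and *SLC39A10* RNA was lower. Of the 6 genes tested, 4 fell and 1 rose (quasi-likelihood test in edgeR, p-values adjusted by Benjamini and Hochberg over 17671 genes, threshold 0.05), against a background of 14.0% of all genes lower and 11.1% higher. With the line as a block the same counts came out, 4 lower and 1 higher, where 45.7% of all genes passed, 22.4% lower and 23.2% higher. The conditions did not overlap for 3 of the 6, beside 27.5% of all genes. *MT1X* did not pass. The members' median log2 fold change was -0.36, beside 0.03 over all genes tested. Of the 6, all but *MT1X* moved in the same direction in each of the 4 lines, which makes 5 of 6 beside 55.4% of all genes tested. Fewer RNA molecules in each cell and fewer cells carrying the RNA cannot be told apart in such bulk samples.

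**Figure D2:**
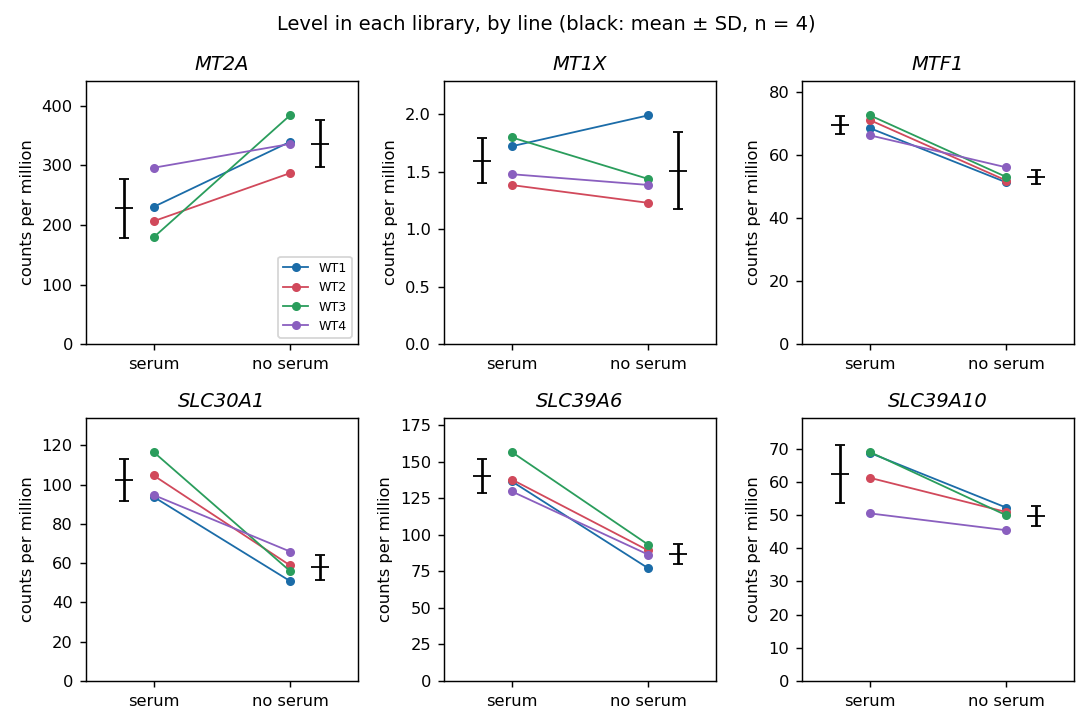
CPM of the 6 tested genes in each library, with 1 colored line joining the serum and serum-free libraries of each of WT1 to WT4 and black bars for the mean ± SD (n = 4). *SLC30A1*, *SLC39A6* and *MTF1* fall with no overlap between conditions, *MT2A* rises with overlap, and *MT1X* crosses.

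*MT2A*, the main metallothionein of these cells, was the member that rose. In WT1 to WT4 its level was 230, 206, 179 and 296 CPM with serum and 339, 287, 384 and 336 CPM without. The groups overlapped, since WT4 with serum lay above WT2 without serum. The log2 fold change was 0.56 (SE 0.15, edgeR's adjusted p = 0.0237), a 1.48-fold higher level, and 0.58 with the line as a block (edgeR's adjusted p = 0.0126). Within lines the log2 difference ranged from 0.18 in WT4 to 1.10 in WT3, with 0.56 in WT1 and 0.48 in WT2.

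The call for *MT2A* depended on the fit. With a correction for GC content added to the block, *MT2A* was at 0.47 and no longer passed (edgeR's adjusted p = 0.0802). Without the block, *MT2A* passed in 3 of the 12 fits that leave out 1 library or 1 line. It was 0.38 without WT3 (edgeR's adjusted p = 0.137) and was lost on leaving out any library other than WT4 with serum and WT2 without serum.

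*MT1X*, the only other metallothionein with enough reads, did not pass the test. It stood at 1.72, 1.38, 1.80 and 1.48 CPM with serum and at 1.99, 1.23, 1.44 and 1.39 CPM without. The conditions overlapped fully, and the direction differed between lines, with WT1 higher and the other 3 lower. The log2 fold change was -0.08 (SE 0.22, edgeR's adjusted p = 0.815), and the SE is larger than that of *MT2A*.

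*MTF1*, the zinc sensor itself (chromosome 1, 37809574 to 37859592), had a small and uniform fall. Its level was 68.5, 71.0, 72.5 and 66.2 CPM with serum and 51.3, 51.9, 53.0 and 56.0 CPM without. The highest serum-free library lay below the lowest serum library. The log2 fold change was -0.39 (SE 0.062, edgeR's adjusted p = 0.00273), and the lines ranged from -0.45 to -0.24. The RNA says nothing of the activity of the protein, which is set by zinc.

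*SLC30A1*, the plasma membrane exporter and a textbook MTF1 target (chromosome 1, 211571568 to 211579161), fell most. It stood at 93.7, 105, 117 and 94.7 CPM with serum and at 50.9, 58.9, 56.0 and 65.9 CPM without. No serum-free library reached the lowest serum library. The log2 fold change was -0.82 (SE 0.099, edgeR's adjusted p = 0.00116), to 0.566 of the level with serum. The 4 lines ranged from -1.06 in WT3 to -0.52 in WT4.

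*SLC30A1* and *MT2A*, whose promoter stretches are printed above, thus moved in opposite directions. The RPKM ratio of *MT2A* to *SLC30A1* was 15.9, 12.7, 9.92 and 20.2 with serum in WT1 to WT4 and 43.0, 31.4, 44.2 and 32.9 without. The ratios did not overlap between conditions, whereas the levels of *MT2A* alone did. Their rise in every line follows from *MT2A* being higher and *SLC30A1* lower in each. The pair was picked after its values were seen, so the ratio is a description.

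*SLC39A6*, the importer ZIP6 (chromosome 18, 36108531 to 36129340), fell nearly as much as *SLC30A1*. Its level was 136, 138, 156 and 130 CPM with serum and 77.1, 89.2, 93.2 and 86.4 CPM without. The conditions did not overlap. The log2 fold change was -0.70 (SE 0.082, edgeR's adjusted p = 0.00112), with lines from -0.82 in WT1 to -0.58 in WT4.

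*SLC39A10*, the related importer ZIP10 (chromosome 2, 195613029 to 195737700), fell less. It stood at 68.7, 61.2, 69.0 and 50.5 CPM with serum and at 52.3, 50.9, 49.9 and 45.4 CPM without. WT4 was lowest in both conditions, and its serum library lay below the serum-free libraries of WT1 and WT2, so that the groups overlapped. The log2 fold change was -0.33 (SE 0.10, edgeR's adjusted p = 0.0401), and with the line as a block -0.32 (edgeR's adjusted p = 9.59e-04). The GC correction with the block brought the change to -0.14 (edgeR's adjusted p = 0.0226). The unblocked call was lost in 10 of the 12 fits that leave out 1 library or 1 line, in all but those without WT4 and without its serum library, and with upper-quartile scaling (edgeR's adjusted p = 0.0768).

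**Figure D3:**
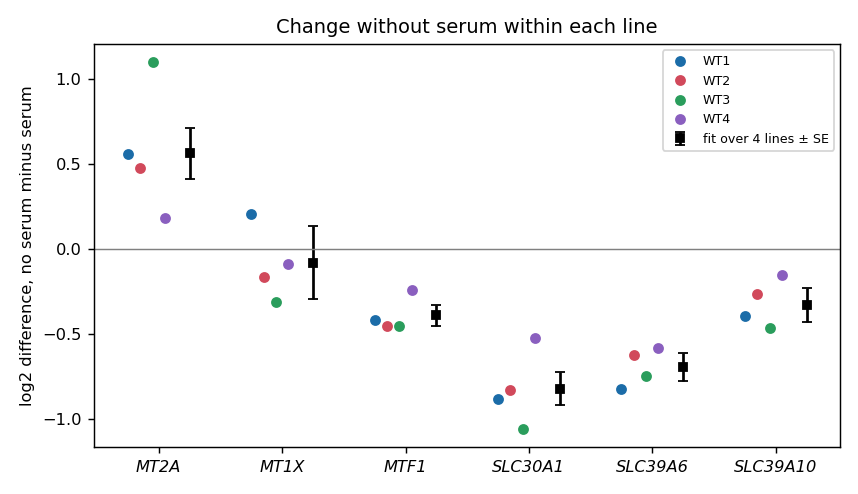
Log2 difference between the serum-free and the serum library of each line (colored points, WT1 to WT4) and the fitted log2 fold change ± SE over 4 lines (black squares). WT4 has the point nearest to 0 for each of the 5 genes that passed, while *MT1X* has points on both sides of 0.

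WT4 showed the smallest difference of the 4 lines for each of the 5 genes that passed. Among all 4434 genes that passed, WT4 had the smallest difference for 35.1%, WT2 for 30.9%, WT3 for 20.5% and WT1 for 13.5%. With 1 library per line and condition, the difference between lines in the response to serum was not tested.

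No member passed the test for a difference between lines with the condition kept in the model (edgeR's F-test, 0 of 6 with adjusted p under 0.05, background 22.9%). At an unadjusted p under 0.05, 1 member passed, *SLC39A10* (edgeR's adjusted p = 0.0639), and DESeq2 called this gene (DESeq2's adjusted p = 0.0490). *SLC39A10* was lowest in WT4, with a mean log2 CPM of 5.58 against 5.80 to 5.91 in the other lines. Leaving out the serum-free library of WT4 gave 3 calls of 6, *SLC30A1*, *SLC39A10* and *SLC39A6*, beside 42.6% of all genes in that fit. Leaving out its serum library or the whole line gave 2 of 6, *SLC30A1* and *SLC39A6*, beside 28.0% and 18.6% of all genes. Without the serum or the serum-free library of WT3, *MT2A* was the 1 call of 6, beside 15.6% and 13.4%.

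Among the other ZnT carriers, most of which load zinc into vesicles and the secretory pathway, the changes went both ways. Of 8 SLC30 genes tested, *SLC30A1* included, 2 fell and 2 rose, beside 25.1% of all genes called in either direction, and their median log2 fold change was -0.05. *SLC30A7*, which supplies the Golgi, fell by 0.44 on the log2 scale, from 148 ± 12.4 to 109 ± 10.9 CPM (mean ± SD, n = 4, edgeR's adjusted p = 0.00747). *SLC30A4*, an endosomal and secretory vesicle carrier, rose by 0.71, from 8.34 ± 1.12 to 13.6 ± 1.75 CPM (edgeR's adjusted p = 0.00628). *SLC30A2*, another vesicle carrier, rose by 1.08 from a low level, 0.773 ± 0.240 to 1.62 ± 0.438 CPM (edgeR's adjusted p = 0.0263). *SLC30A6* passed with the block alone, at -0.22 (edgeR's adjusted p = 0.0229), while *SLC30A3*, *SLC30A5* and *SLC30A9* did not pass in either of these fits. With the GC correction added to the block, *SLC30A6* was at -0.04 and did not pass (edgeR's adjusted p = 0.540), *SLC30A7* was at -0.24, and *SLC30A9* passed (0.15, edgeR's adjusted p = 0.00605). *SLC30A2* passed in 4 of the 12 fits that leave out a library or a line.

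Of 12 SLC39 genes tested, which bring zinc into the cytosol, 6 fell, 1 rose and 5 did not pass, beside 14.0% of all genes lower and 11.1% higher. Their median log2 fold change was -0.20 beside 0.03 over all genes. Besides *SLC39A6* and *SLC39A10* the genes that fell were *SLC39A8* (-0.53, edgeR's adjusted p = 0.00889) and *SLC39A14* (-0.46, edgeR's adjusted p = 0.0217), which import zinc, manganese and iron, *SLC39A3* (-0.37, edgeR's adjusted p = 0.0281) and *SLC39A9* (-0.18, edgeR's adjusted p = 0.0469). *SLC39A13*, which releases zinc from intracellular stores, was the 1 that rose (0.26, edgeR's adjusted p = 0.0431). *SLC39A1* passed with the block alone (-0.21, edgeR's adjusted p = 0.00737), and 50.4% of its windows of 100 bases occur in other genes. With the block and the GC correction, the change of *SLC39A13* was 0.0038 (edgeR's adjusted p = 0.960), that of *SLC39A9* was -0.11, and *SLC39A7* passed too (-0.27, edgeR's adjusted p = 8.60e-05). Of the 12 fits that leave out a library or a line, *SLC39A9* passed in 2, *SLC39A3* and *SLC39A13* in 3 each, *SLC39A14* in 6 and *SLC39A8* in 11.

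**Figure D4:**
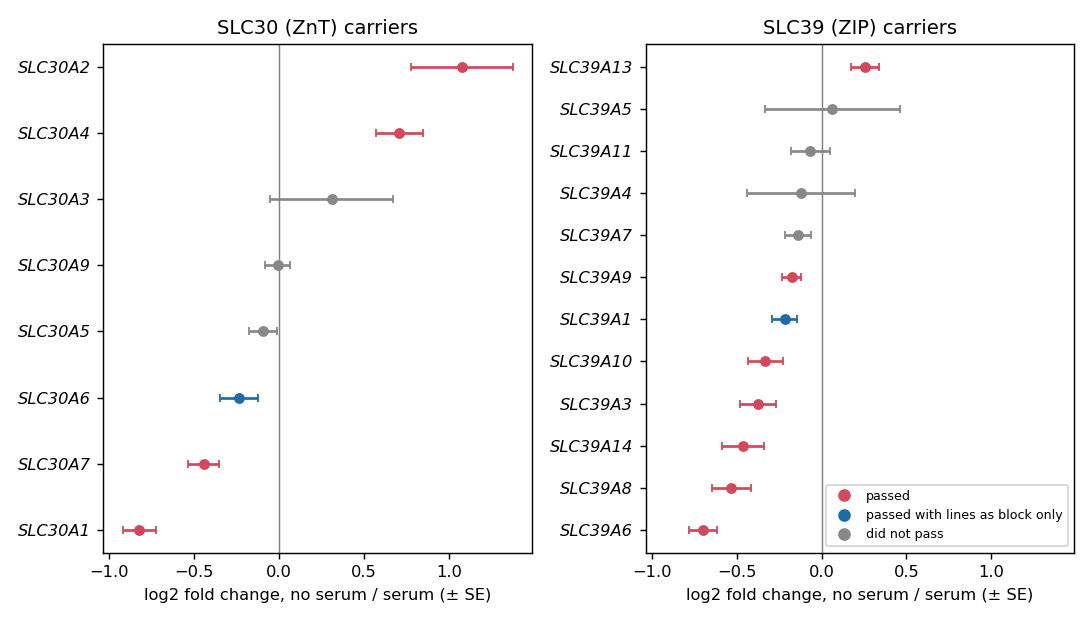
Log2 fold change ± SE, serum-free against serum, of the 8 SLC30 and 12 SLC39 genes tested, with red for genes that passed, blue for genes that passed with the lines as a block alone and grey for the rest. *SLC30A1* and *SLC39A6* have the lowest values of their families, at -0.82 and -0.70, and *SLC30A2* and *SLC39A13* the highest, at 1.08 and 0.26.

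Of 6 other genes described as MTF1 targets, 1 rose and 1 fell, beside 11.1% and 14.0% of all genes. *NDRG1*, a stress-responsive gene, rose (1.03, edgeR's adjusted p = 0.0221) and *SELENOW*, a small selenoprotein, fell (-0.69, edgeR's adjusted p = 0.00339). *SELENOH* passed with the block alone (-0.32, edgeR's adjusted p = 0.00311), and *PGF*, *CSRP1* and *TXNRD2* did not pass in either fit. With the GC correction added, *TXNRD2* passed (-0.33, edgeR's adjusted p = 1.45e-04). *NDRG1* passed in 5 of the 12 fits that leave out a library or a line. Of 4 further zinc channel and binding genes 0 passed without the block, beside 25.1% of all genes, and 2 with it, beside 45.7%, where *MCOLN1* (0.28, edgeR's adjusted p = 0.00976) and *S100B* (0.26, edgeR's adjusted p = 0.0469) were higher. Both calls were lost with the GC correction added, at 0.039 for *MCOLN1* and 0.16 for *S100B* (edgeR's adjusted p = 0.651 and 0.178), while *TRPM7* passed there (0.13, edgeR's adjusted p = 0.0140).

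Metallothioneins also bind copper and respond to metal and oxidant stress, and these genes were read alongside. Of 10 copper handling genes tested, the importer *SLC31A1* fell (-0.46, edgeR's adjusted p = 0.00421), and the exporter *ATP7B* (0.64, edgeR's adjusted p = 0.0467) and the copper chaperone *CCS* (0.38, edgeR's adjusted p = 0.0367) rose, so that 3 of 10 passed beside 25.1% of all genes. *CCS* lost its call with the block and GC correction, at 0.15 (edgeR's adjusted p = 0.223), whereas *ATP7A*, *COX17*, *COMMD1* and *STEAP2*, at 0.20, -0.19, -0.28 and 0.76, passed there and not with or without the block on its own (edgeR's adjusted p = 0.0335, 0.0495, 0.0373 and 0.00805). *CCS* and *ATP7B* each passed in 2 of the 12 fits that leave out a library or a line. The chaperone *ATOX1* passed with the block alone (-0.40, edgeR's adjusted p = 1.32e-04). Of 10 metal and oxidant stress genes, 4 fell and 2 rose, beside 14.0% and 11.1% of all genes. The heme oxygenase *HMOX1*, induced by cadmium and oxidants, fell by 0.72 on the log2 scale (edgeR's adjusted p = 0.0221), and the heat shock genes *HSPA1A* (-0.63), *HSPA1B* (-0.64) and *DNAJB1* (-0.39) fell with it (edgeR's adjusted p = 0.00622, 0.0123 and 0.00622). *HSPA1A* and *HSPA1B* share 69.5% and 72.8% of their windows with other genes. Reads that align to more than 1 place are not in the gene counts, so both may be undercounted. *GCLC*, for glutathione synthesis, rose by 0.29 (edgeR's adjusted p = 0.0173) and *NQO1*, a quinone reductase, by 0.48 (edgeR's adjusted p = 0.00767). With the block, *GCLM* was also lower (-0.53) and *TXNRD1* higher (0.39), with edgeR's adjusted p = 3.16e-04 and 8.78e-04. With the GC correction added, *GCLM* was at -0.34 and did not pass (edgeR's adjusted p = 0.0634), and *SLC7A11* passed (0.42, edgeR's adjusted p = 0.0161). *HMOX1* passed in 6 of the 12 fits that leave out a library or a line.

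Genes with the profile most like that of *MT2A* over the 8 libraries, among 11531 other genes that code for protein and average 100 reads or more, were *CFAP119*, *B4GALT7*, *CTNNBIP1*, *THOC6* and *SPAG7*, with Pearson's r of log2 CPM from 0.961 to 0.971. Those most like *SLC39A10* were *RBM27*, *DDX6*, *MRPL19*, *LMAN1* and *TRAM1*, with r from 0.994 to 0.996. The 8 points share the 4 lines and the contrast between conditions, so these values are descriptions.

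The cells carried part of the melanoma marker set. *SOX10* was listed at 0 reads in all 8 libraries. Only 5.39% of its exon bases overlap another gene, *POLR2F*, and 0% do so on the same strand. The 0 was not read as absence, since the annotation release and strand setting of the counting are not given in the sources used here. Its cause was not tested. *PMEL*, *MLANA*, *DCT*, *TYR* and *TYRP1* averaged at most 1.23 CPM in either condition, while *AXL* averaged 590 CPM with serum and 472 without, *NGFR* 93.2 and 104, and *S100B* 18.9 and 23.2. *MITF* fell from 40.2 to 33.1 CPM (-0.28, edgeR's adjusted p = 0.0496). This was the 1 call among the 7 of these 10 markers that were tested, beside 25.1% of all genes. In the fit with the block 3 of the 7 fell and 1 rose, beside 22.4% and 23.2% of all genes. With the block *DCT* also fell (-0.89, edgeR's adjusted p = 0.0251), as did *AXL* (-0.35, edgeR's adjusted p = 5.88e-04), while *S100B* rose as given above and *NGFR* did not pass (0.039, edgeR's adjusted p = 0.785). Summed fibroblast markers ran from 6.41 to 10.3 CPM with serum and from 7.96 to 10.4 without. Keratinocyte markers ran from 15.0 to 21.8 CPM with serum and from 11.8 to 21.0 without, of which *KRT14* made up nearly all. Leukocyte and endothelial markers, 5 of the 6 listed being counted, ran from 12.7 to 41.6 and from 18.4 to 46.7 CPM. *KDR* made up nearly all of that sum. These ranges overlapped between conditions. Within lines, *KDR* was higher without serum in all 4 and passed with the block but not without it (0.35, edgeR's adjusted p = 0.00800). Of the 4 fibroblast markers tested, however, *PDGFRA* rose in all 4 lines without overlap, from 0.709 ± 0.197 to 2.39 ± 1.17 CPM (mean ± SD, n = 4, log2 fold change 1.77, edgeR's adjusted p = 0.00767), and *DCN* passed with the block alone (0.90, edgeR's adjusted p = 0.0125). That makes 1 of 4 called beside 25.1% of all genes, and 2 of 4 beside 45.7% with the block. *LUM* (-0.33, edgeR's adjusted p = 0.420) and *COL1A1* (0.15, edgeR's adjusted p = 0.811) did not pass, and *COL1A2* and *COL3A1*, too low to test, averaged at most 0.0772 CPM in either condition. The part of these markers in the results was not tested. Reads that aligned to more than 1 place made up 22.7% and 16.8% in the serum libraries of WT1 and WT2 and 5.73% to 10.1% in the other 6. The part of these shares in the results was not tested.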

How the data were processed

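The deposited values are the authors' unnormalized counts of reads on each gene, 1 file per library, from total RNA depleted of ribosomal RNA and sequenced in pairs. The submitters' processing notes name cutadapt, TopHat2 2.0.11, HTSeq and GRCh38, whereas the study's methods name hg19. Which annotation release and which strand setting were used is not given in the sources used here, so antisense and overlapping genes are uncertain. Ambiguous reads (8.23% to 11.5%) were left out of library sizes and tests. Of 58051 Ensembl identifiers, 55604 matched a symbol. Positions and promoters are from RefSeq (GRCh38.p14), and 6 of the 10 members have a promoter entry. Lengths, GC content, shared windows and transcripts came from a GENCODE annotation on GRCh37.

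The main test was the quasi-likelihood F-test of edgeR 4.0.16 (R 4.3.3, robust glmQLFit) on genes kept by filterByExpr, with TMM scaling. It compared the serum-free libraries with the serum libraries, no block being used, and p-values were adjusted by Benjamini-Hochberg at 0.05. CPM and RPKM used TMM-scaled library sizes, and log2 CPM a prior count of 2. Line differences were tested by an F-test with condition in the model. Same-numbered libraries come from the same line, and their deviations from the condition means correlated at 0.403 to 0.604 (across lines at most 0.126), so the line number served as the block. Libraries of a condition differed well beyond sampling noise and each counts once. Without the block, p-values set the difference against the spread between the 4 lines within a condition, and leave the pairing by line unused. With the block, they set it against how far the difference varies between lines. Each line and condition was 1 culture.

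The members and gene lists were chosen with earlier results of these data known. All 10 members are named, with list genes that passed with or without the block, the 5 genes most like *MT2A* and *SLC39A10*, and, outside this rule, the list genes that did not pass, marker genes and values singled out after they were seen. Alternatives were the line as block, the block with GC correction, RLE and upper-quartile scaling, other filters, DESeq2 1.42.0, limma 3.58.1 (voom) and leaving out each library or line. The serum comparisons that leave out a library or line were all run without the block. Voom with the block and levels by spliced mRNA length were added after the data were seen.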

Additional observations from a re-analysis of the deposited data

How the results depend on the processing

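The 5 changed members kept their direction in all 21 alternatives each, and *SLC30A1*, *SLC39A6* and *MTF1* passed in all of them. The count of members that fell was 3 to 4 throughout. The count that rose was 0 with the replicate block and GC correction, and 0 to 1 on leaving out a library or line, through *MT2A*. The replicate block alone (line number as block) left 4 members lower and 1 higher and changed no member's call, while it raised the calls over all genes from 4434 to 8067. The list genes outside the members numbered 19 called of 47 tested, 27 with the replicate block, 30 with the replicate block and GC correction, and 6 to 20 on leaving out a library or line (6 without WT3, 7 without WT1, 9 without WT2, and 11 without the serum library of WT1 or of WT2). Over all genes the calls in these fits were 4434 of 17671, 8067 with the block, 8150 with the block and GC correction, and 1589 to 6128 on leaving out a library or line. Members differing between lines numbered 1 with no filter on low counts (of 8, beside 15.3% of all genes) and 1 with DESeq2 (of 6, beside 23.8%), through *SLC39A10* in both, and 0 to 3 on leaving out a library or line (beside 13.3% to 42.6%). *MT1X*, never called, ranged from -0.24 without the serum-free library of WT1 to 0.011, a turned direction, without that of WT2. Upper-quartile scaling gave 1843 genes lower and 2508 higher over all genes, against 2477 and 1957 in the main test, and moved their median from 0.03 to 0.10. The cause of these shifts was not tested. RPKM of *MT1X* with the spliced mRNA length was 3.95 with serum and 3.74 without, and *SLC39A10* stood at 11.5 with serum by the longest transcript. *MT1F* and *MT1G* had too few reads for the main test. They entered the fits with no filter on low counts, where neither was called. No gap in the 18 sets of 4 values searched was large enough to set 1 line apart by Dixon's test.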
